A study of Rattus norvegicus with 10 samples.

Results

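Catecholamines (dopamine, noradrenaline and adrenaline) are made, packed and broken down by a short chain of enzymes and transporters, and 8 genes of that chain are described here in the rat supraoptic nucleus. They were chosen by name as Th, Ddc, Dbh, Gch1, Slc18a2, Slc6a3, Maoa and Maob, and each name stood in 1 row of a deposited table of 32623 genes. Of the 8 genes, 6 had a mean of at least 10 normalized counts and were tested across all genes, while Dbh and Slc6a3 did not and are given by their values.

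RNA sequencing covered 10 nuclei of male Sprague-Dawley rats of 250 to 300 g, whose ages the labels do not give. Of these, 5 (shControl) had received an adeno-associated virus with a non-targeting short hairpin RNA and 5 (shOpn3) a virus with a hairpin against Opn3, which encodes an opsin. Both groups were thus injected, none was untreated, and a rat had 1 nucleus in each group per the labels' protocols. Tissue was taken 2 weeks after the virus with a 1-mm punch from 100 µm sections, each nucleus being extracted on its own, so a sample holds every cell type inside the punch. The labels name neither the promoter of the hairpins nor the cells that took up the virus.

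Tyrosine hydroxylase (Th) turns tyrosine into L-DOPA and needs tetrahydrobiopterin, whose synthesis starts with GTP cyclohydrolase 1 (Gch1). DOPA decarboxylase (Ddc) makes dopamine from L-DOPA, and also serotonin from 5-hydroxytryptophan. Dopamine beta-hydroxylase (Dbh) carries dopamine on to noradrenaline inside vesicles filled by the vesicular monoamine transporter Slc18a2, and the dopamine transporter Slc6a3 takes dopamine back up. Monoamine oxidases A and B (Maoa, Maob) sit on the outer mitochondrial membrane and oxidise monoamines. In the rat, magnocellular neurons of this nucleus are known to make Th transcript, more of it under osmotic load, and noradrenergic fibres reach the nucleus from cell bodies in the brainstem.

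The libraries held 33158341 to 39958578 reads in genes. Opn3 fell to 26.7% of the control mean (log2 difference -1.82, SE 0.320, limma adjusted p = 0.00226), but shControl replicate 5, at 261 normalized counts, lay below shOpn3 replicate 1 at 290. Without that control the groups did not overlap for Opn3 (lowest control 694, log2 difference -2.14, limma adjusted p = 0.000202). That control was singled out by its Opn3 value, so the lack of overlap and the larger drop follow from leaving it out. They are not separate results. Replicate 5 of shControl had the lowest control value for Th, Ddc, Slc18a2, Gch1, Maoa and Avp as well, so results that turn on it are given without it too. In those genes leaving it out raises the control mean, so a larger drop without it is not separate support. Avp and Oxt, the peptide transcripts that define this nucleus, were present in all 10 samples, Avp at 4619 to 102261 and Oxt at 3810 to 56716 normalized counts. Of 15597 genes tested, 8.48% were called lower and 10.4% higher in shOpn3 by limma with the group alone, and 15.2% lower and 15.1% higher with the replicate number as a block. Total-count scaling gave 835 lower and 2139 higher in place of 1322 lower and 1618 higher.

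Against that background, an enzyme of synthesis was lower and an enzyme of breakdown higher in shOpn3. With the group alone, 1 of the 6 genes tested fell (Ddc) and 1 rose (Maob). With the block, 3 fell (Th, Ddc and Slc18a2) and 1 rose (Maob). Gch1 and Maoa were called by neither fit. With 6 genes tested, a count of 1 in each direction is of the order of the shares over all genes and says nothing of the chain as a whole. Differences are on the log2(normalized count + 1) scale, shOpn3 minus shControl, and a call is an adjusted p under 0.05 over all genes tested.

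**Figure D1:**
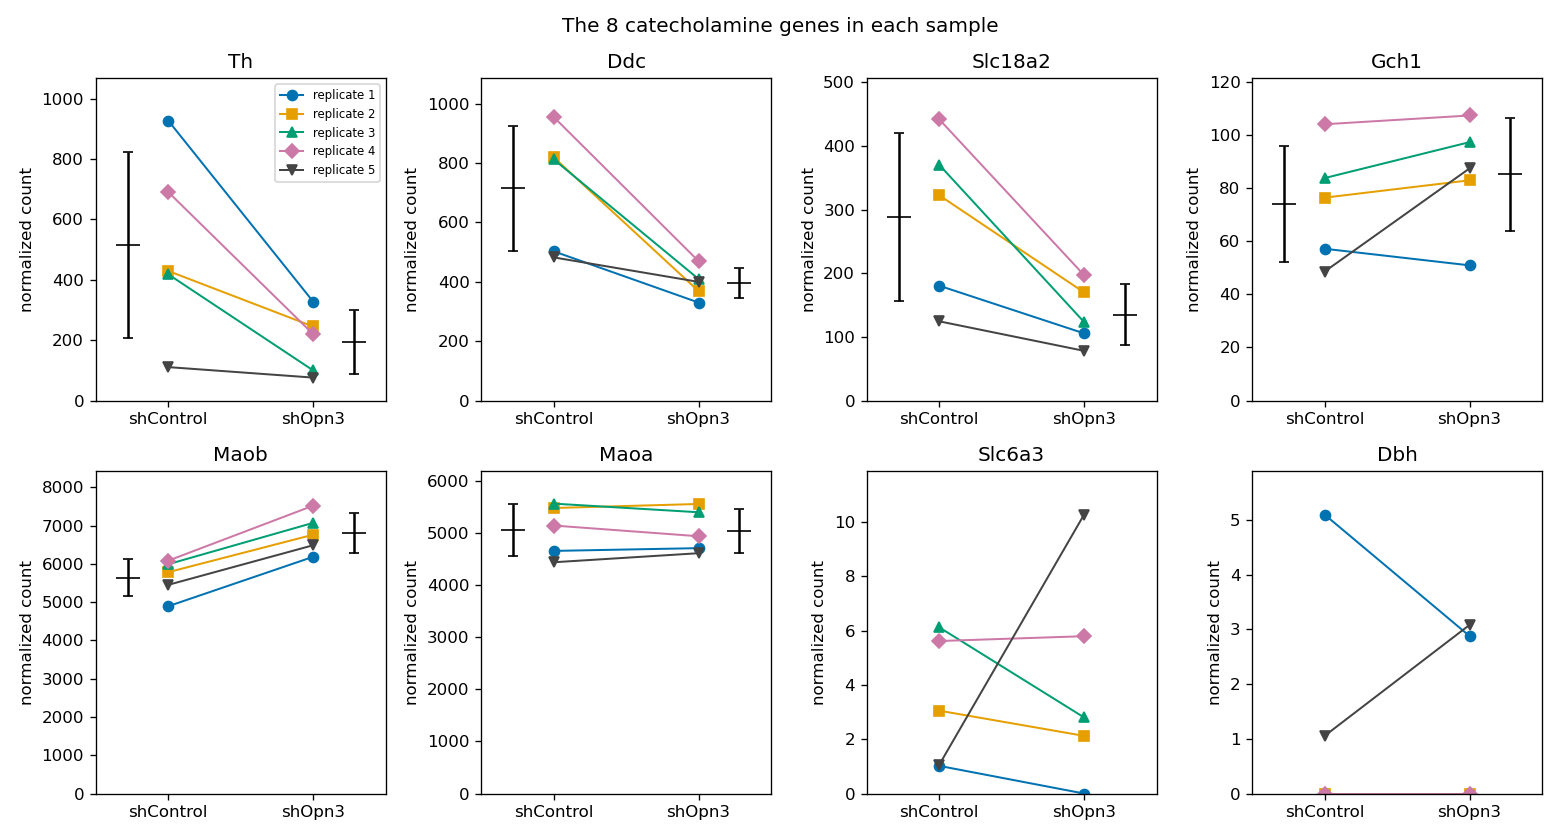
Normalized counts (vertical axes, linear and starting at 0, a different range in each panel) of the 8 genes in shControl and shOpn3 samples, with a line joining the samples of the same replicate number. Bars beside the points give the group mean ± SD (n = 5) and are left out for Slc6a3 and Dbh, which are near the limit of detection. All 5 lines go down for Th, Ddc and Slc18a2 and up for Maob.

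Th transcript was lower in the shOpn3 sample of every pair, yet the comparison of the groups alone did not pass the test. Its values differed widely within both groups. Th (ENSRNOG00000020410) stood at 928, 429, 418, 691 and 111 normalized counts in shControl replicates 1 to 5 and at 328, 245, 100.0, 220.2 and 76.0 in shOpn3 replicates 1 to 5. The control samples spread over a wide range and the groups overlapped, because shControl replicate 5 was lower than 3 of the 5 shOpn3 samples. The means were 516 ± 309 and 194 ± 105 (n = 5 each, SD), so the shOpn3 mean was 37.6% of the control mean. The log2 difference was -1.31 (SE 0.54, 95% interval -2.48 to -0.13), with a limma adjusted p of 0.116, and an exact permutation test on log2 values, two-sided, gave p = 0.0873.

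Set against the control of the same number, Th was at 35.4%, 57.1%, 23.9%, 31.9% and 68.6% in replicates 1 to 5. Blocking on the replicate number, limma called it lower (SE 0.209, interval -1.79 to -0.83, limma adjusted p = 0.00296). Without shControl replicate 5, the group fit called it as well, at -1.79 with a limma adjusted p of 0.0124. Of the 10 group fits that left out 1 sample, this was the only 1 to call Th. The other 9 did not, with a limma adjusted p of up to 0.246. The authors' deposited table lists Th at -1.41 (log2 fold change; standard error 0.581; adjusted p 0.0659).

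Of the 6 tested genes of the chain, 3 were lower in all 5 pairs (Th, Ddc and Slc18a2) and 1 was higher in all 5 (Maob). Of all genes tested, 20.7% were lower and 18.7% higher in all 5 pairs. The smallest p that 5 pairs allow in an exact sign-flip test is 0.063.

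Gch1, the entry to the cofactor of Th, was called in 0 of 27 alternative fits. Gch1 (ENSRNOG00000011039) stood at 57.1, 76.3, 83.7, 103.9 and 48.5 normalized counts in shControl replicates 1 to 5 and at 50.8, 82.8, 97.2, 107.2 and 87.3 in shOpn3 replicates 1 to 5. The groups overlapped over most of their range, and 4 of the 5 pairs had the higher value in shOpn3. The log2 difference was 0.21 (SE 0.244, interval -0.32 to 0.74, limma adjusted p = 0.601).

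Ddc, the next enzyme of the chain, was lower in shOpn3 under every fit that was run. Ddc (ENSRNOG00000004327) stood at 503, 819, 812, 955 and 482 normalized counts in shControl replicates 1 to 5 and at 330.0, 369, 409, 469 and 399.6 in shOpn3 replicates 1 to 5. The groups did not overlap, since the highest shOpn3 sample (469) lay just under the lowest control sample (482). The mean fell from 714 ± 211 to 395 ± 51.7 (n = 5 each, SD), to 55.4% of control, and the spread between samples was smaller in shOpn3. The log2 difference was -0.81 (SE 0.190, limma adjusted p = 0.0110, two-sided exact permutation p = 0.00794, the smallest that 5 against 5 samples allow).

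In pairs, Ddc was at 65.7%, 45.0%, 50.4%, 49.2% and 82.9% of the same-numbered control. It kept its call in 27 of 27 alternative fits, with log2 differences from -1.06 to -0.69. Groups without overlap were found for 7.23% of all tested genes with shOpn3 lower and for 8.03% with shOpn3 higher. In the RefSeq annotation Ddc overlaps Fignl1 and a long non-coding RNA gene, and whether the authors counted by strand is not given in the sources used here, so reads of these genes may be mixed with those of Ddc. The authors' deposited table lists Ddc at -0.85 (log2 fold change; standard error 0.197; adjusted p 2.08e-04).

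Dbh transcript was close to absent from the punches. Its reads (ENSRNOG00000006641) numbered 5, 0, 0, 0 and 1 in shControl replicates 1 to 5 and 3, 0, 0, 0 and 3 in shOpn3 replicates 1 to 5. In 6 of the 10 libraries it had no read, which allows up to 3 reads in a library by counting error alone, and no fold change is given. Phox2a, a transcription factor of noradrenergic neurons, had 0 to 4 reads in a sample, and the 4 noradrenergic markers, among them Dbh, Slc6a2 and Phox2a, summed to 15.3 to 39.0 normalized counts in shControl and 14.9 to 52.4 in shOpn3. Of these 4, Slc6a2 alone passed the filter, and it was not called (log2 difference 0.28, limma adjusted p = 0.655).

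Pnmt, the enzyme that makes adrenaline from noradrenaline, had 1 read in shControl replicate 4, 1 read in shOpn3 replicate 3 and none in the others. At this depth the last 2 enzymes of the chain were thus at or near the floor in both groups, and no difference between the groups was detectable in them.

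Slc18a2, which packs monoamines into vesicles, was lower in shOpn3 in every pair but, like Th, was not called by limma with the group alone. Slc18a2 (ENSRNOG00000008890) stood at 180.4, 323, 370.4, 442 and 124 normalized counts in shControl replicates 1 to 5 and at 106, 169.9, 123, 197 and 78.1 in shOpn3 replicates 1 to 5. Control replicates 1 and 5 lay inside the range of the shOpn3 samples, so the groups overlapped. The means were 288 ± 132 and 135 ± 48.3 (n = 5 each, SD), which put shOpn3 at 46.8% of control. The log2 difference was -1.02 (SE 0.348, interval -1.78 to -0.26), with a limma adjusted p of 0.0610 and an exact two-sided permutation p of 0.0476.

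Pair by pair, Slc18a2 stood at 58.5%, 52.7%, 33.3%, 44.6% and 62.7% of its control. The block fit called it lower (SE 0.142, limma adjusted p = 0.00172), and so did the group fit without shControl replicate 5 (-1.28, limma adjusted p = 0.0133). Of the 10 group fits that left out 1 sample, 2 called Slc18a2, the second being that without shOpn3 replicate 4 (limma adjusted p = 0.0459). The other 8 did not, with a limma adjusted p of up to 0.138. The count tests with the group alone also called it, at an adjusted p of 0.0389 with edgeR and of 0.0069 with DESeq2. The authors' deposited table lists it at -1.10 (log2 fold change, standard error 0.331, adjusted p 0.00690). These are the values of the DESeq2 test just given, so the 2 are not separate results.

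Replicate numbers 1 to 5 did not rank alike for the 3 genes. Among the controls, Th was highest in replicate 1, Ddc and Slc18a2 were highest in replicate 4, and all 3 were lowest in replicate 5. Among the shOpn3 samples, replicate 5 was again lowest for Th and Slc18a2, whereas Ddc was lowest in replicate 1. Th followed the order of Avp among the controls, with replicates 1, 4, 2, 3 and 5 from high to low in both genes, but not among the shOpn3 samples, where replicate 2 was above replicate 4 for Th and below it for Avp.

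**Figure D2:**
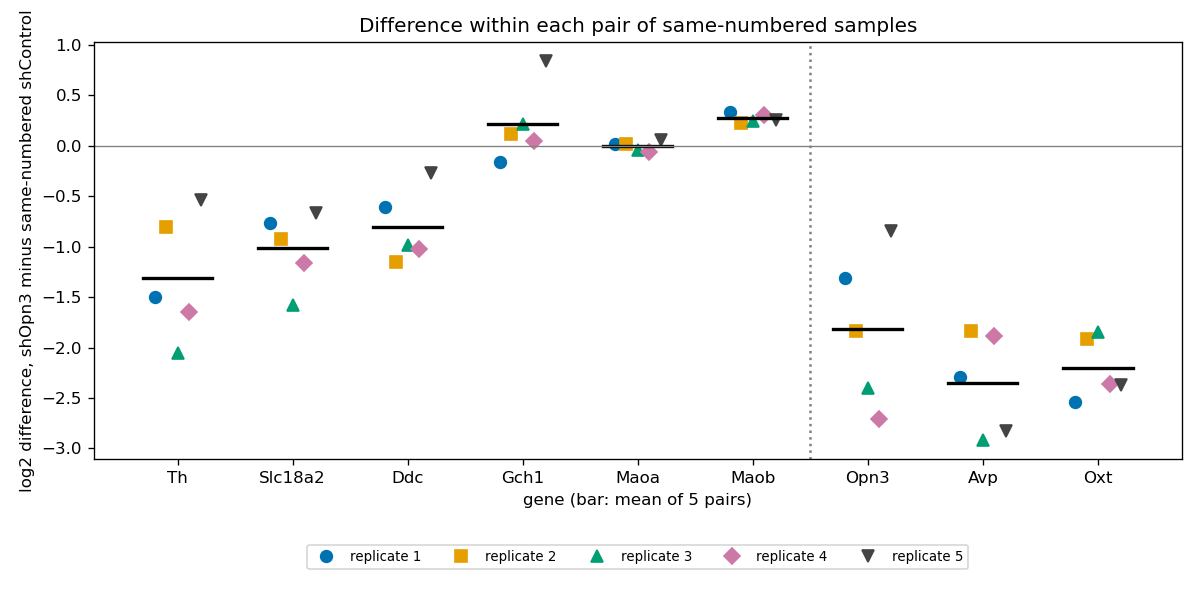
Log2 difference of shOpn3 minus the same-numbered shControl sample (vertical axis) for 6 catecholamine genes and for Opn3, Avp and Oxt (horizontal axis), with a point for each of the 5 pairs and a bar at their mean. Maob lies above 0 with little spread (SD 0.048), Maoa lies around 0, and Th, Slc18a2 and Ddc lie below 0 with pairs far apart.

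The dopamine transporter Slc6a3 (ENSRNOG00000017302) had 1, 3, 6, 6 and 1 reads in shControl replicates 1 to 5 and 0, 2, 3, 6 and 10 in shOpn3 replicates 1 to 5. Most of these values lie near the floor of 3 reads, so no fold change is given. An exact permutation test on its log2 values, two-sided, gave p = 0.992. Slc6a3 also overlaps a non-coding gene in the RefSeq annotation.

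The start regions of Th and Slc18a2 are shown because both were lower in all 5 pairs and both hold the same 8 letters, those of the cAMP response element (CRE), the sequence bound by CREB. They are the 250 bases before the start in the RefSeq promoter table of assembly GRCr8, 5′ to 3′ on the strand of the gene, with the CRE in capitals. Th lies on the minus strand at chr1:207508219-207508468 and Slc18a2 on the plus strand at chr1:268399771-268400020.
Th: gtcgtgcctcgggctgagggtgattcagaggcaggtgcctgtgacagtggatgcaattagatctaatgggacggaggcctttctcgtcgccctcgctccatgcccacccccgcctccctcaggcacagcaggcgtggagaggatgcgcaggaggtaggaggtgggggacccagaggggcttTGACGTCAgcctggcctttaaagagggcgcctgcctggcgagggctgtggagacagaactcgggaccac
Slc18a2: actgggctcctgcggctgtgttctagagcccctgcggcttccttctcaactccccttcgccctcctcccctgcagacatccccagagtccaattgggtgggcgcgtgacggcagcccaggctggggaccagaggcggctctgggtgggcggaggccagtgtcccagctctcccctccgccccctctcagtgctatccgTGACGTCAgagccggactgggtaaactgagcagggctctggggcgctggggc

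The motif TGACGTCA, which reads the same on both strands, lies at -69 to -62 of Th and at -52 to -45 of Slc18a2, counted from the start in that table. It stood in 1.59% of 33469 such windows. None of the windows of the other 6 genes holds it, including the 3 windows listed for Ddc. The AP-1 letters TGACTCA (on the other strand, TGAGTCA) stood in 4.05% of windows and in none of the 8 genes, and CCAAT (on the other strand, ATTGG) stood in 34.0% of windows, among them those of Slc18a2, Dbh, Gch1, Maob and 1 of the 3 of Ddc. In Slc18a2 2 such matches on opposite strands overlap. A match describes the letters only, and no binding was measured.

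At the breakdown end of the chain the 2 monoamine oxidases parted. Maob was higher in shOpn3 by about the same factor in every pair, while Maoa differed little in any pair. Maob (ENSRNOG00000029778) stood at 4891, 5781, 5988, 6081 and 5450.0 normalized counts in shControl replicates 1 to 5 and at 6181, 6759, 7069, 7517 and 6484 in shOpn3 replicates 1 to 5. Every shOpn3 sample lay above every control sample. The mean rose from 5638 ± 483 to 6802 ± 517 (n = 5 each, SD), to 121% of control.

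The log2 difference of Maob was 0.27 (SE 0.0803, interval 0.10 to 0.45, limma adjusted p = 0.0333, two-sided exact permutation p = 0.00794). In pairs, shOpn3 stood at 126%, 117%, 118%, 124% and 119% of control, a mean log2 difference of 0.27 ± 0.048 (SD, n = 5 pairs). The block fit called it with a limma adjusted p of 0.00493. With the group alone the call was lost in 7 of the 10 fits that left out 1 sample, at limma adjusted p from 0.0524 to 0.0874, the fit without shControl replicate 5 (0.26, limma adjusted p = 0.0574) among them. The authors' deposited table lists Maob at 0.27 (log2 fold change; standard error 0.0873; adjusted p 0.0126).

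Maoa (ENSRNOG00000002848) stood at 4653, 5475, 5559.6, 5139 and 4435 normalized counts in shControl replicates 1 to 5 and at 4706, 5552, 5394, 4934 and 4609 in shOpn3 replicates 1 to 5. Its groups overlapped almost completely, with means of 5052 ± 496 and 5039 ± 417 (n = 5 each, SD). In 3 pairs shOpn3 was higher and in 2 it was lower. The 95% interval of the log2 difference ran from -0.19 to 0.18 with the group alone and from -0.11 to 0.11 with the block (limma adjusted p = 0.990 with the group alone).

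Maob is known from glia, above all astrocytes, and Maoa from catecholaminergic neurons among others. Of 8 astrocyte markers, limma called 3 higher (Gfap, Aqp4 and Gja1) and 0 lower, and 5 were not called. Among these 5, Slc1a3 (log2 difference -0.14) and Gjb6 (-0.19) were lower in all 5 pairs and Slc1a2 (0.21) was higher in all 5. S100b was at -0.04 and Aldh1l1 at 0.07. The summed level of the 8 markers ran from 265522 to 350110 normalized counts in shControl and from 312304 to 452936 in shOpn3, overlapping between the groups. Their part in the difference of Maob was not tested. In bulk tissue, more or fewer cells of a type and more or less RNA per cell cannot be told apart, and this holds for every gene here.

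The Maob to Maoa ratio and the ratios to Avp below were chosen after the values had been seen, and 7 ratios were computed in all. Maob per Maoa was 1.05, 1.06, 1.08, 1.18 and 1.23 in shControl replicates 1 to 5 and 1.31, 1.22, 1.31, 1.52 and 1.41 in shOpn3 replicates 1 to 5, in normalized counts not corrected for gene length. It was higher in shOpn3 in 5 of 5 pairs, and the groups overlapped only in that the highest control (1.23) passed the lowest shOpn3 sample (1.22). The means were 1.12 ± 0.0815 and 1.35 ± 0.116 (n = 5 each, SD), and the exact two-sided permutation test gave p = 0.0159, or 0.0556 after Benjamini-Hochberg adjustment over the 7 ratios. Without shControl replicate 5, left out after the values had been seen, the highest control was 1.18 and the groups did not overlap (exact permutation p = 0.0159, adjusted 0.0556).

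The 2 genes lie near each other on the X chromosome on opposite strands, and their start regions are shown for comparison, again as the 250 bases before the start on the strand of the gene. Maob is at chrX:8490155-8490404 on the plus strand and Maoa at chrX:8681373-8681622 on the minus strand. Capitals mark the GC box GGGCGG (on the other strand, CCGCCC), the core of the sequence bound by Sp1.
Maob: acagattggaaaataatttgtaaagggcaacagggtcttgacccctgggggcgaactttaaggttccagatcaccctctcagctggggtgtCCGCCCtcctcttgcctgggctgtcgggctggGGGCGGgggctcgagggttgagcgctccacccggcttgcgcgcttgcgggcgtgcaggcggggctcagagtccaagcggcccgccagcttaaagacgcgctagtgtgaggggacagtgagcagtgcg
Maoa: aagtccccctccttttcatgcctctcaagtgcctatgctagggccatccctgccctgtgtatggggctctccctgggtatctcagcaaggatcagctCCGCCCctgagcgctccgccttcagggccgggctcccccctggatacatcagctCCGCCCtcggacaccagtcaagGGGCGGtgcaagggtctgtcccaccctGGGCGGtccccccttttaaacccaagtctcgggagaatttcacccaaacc

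The window of Maoa holds 4 GC boxes and that of Maob 2, and both have matches on either strand. The motif stood in 30.5% of all windows, and also in those of Slc6a3, Slc18a2 and Gch1. It does not overlap any other motif searched in Maoa or Maob.

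Th, Ddc and Slc18a2 were next set against Avp, the peptide of the magnocellular neurons, whose own transcript fell further (log2 difference -2.35, SE 0.426, limma adjusted p = 0.00269). Avp stood at 102261, 51818, 39048, 54257 and 32813 normalized counts in shControl replicates 1 to 5 and at 20888, 14470, 5159, 14727 and 4619 in shOpn3 replicates 1 to 5. Per 1000 normalized counts of Avp, Th stood at 9.07, 8.29, 10.7, 12.7 and 3.38 in shControl and at 15.7, 17.0, 19.4, 15.0 and 16.5 in shOpn3. Every shOpn3 sample lay above every control sample on this ratio. Th was thus higher relative to Avp, while its normalized counts were lower in all 5 pairs but not called with the group alone. A mean log2 ratio to Avp is higher in shOpn3 for any gene that fell less than Avp. The share of all genes for which this holds was not computed, so the ratios to Avp do not set Th, Ddc or Slc18a2 apart from other genes.

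The mean of Th per 1000 Avp was 8.84 ± 3.5 in shControl and 16.7 ± 1.68 in shOpn3 (n = 5 each, SD; log2 difference 1.04; two-sided exact permutation p = 0.00794, adjusted over the 7 ratios 0.0556). The ratios of Slc18a2 (exact permutation p = 0.0476, adjusted 0.0833) and of Ddc (exact permutation p = 0.0317, adjusted 0.0741) to Avp were likewise higher in shOpn3 in 5 of 5 pairs. None of the 7 ratios passed after adjustment. Without shControl replicate 5, the exact permutation p was 0.00794 for Th, 0.0873 for Slc18a2 and 0.0556 for Ddc per Avp, and again no ratio passed after adjustment. With all 10 samples, the 3 ratios among Th, Ddc and Slc18a2 gave exact permutation p-values of 0.444 to 0.571.

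**Figure D3:**
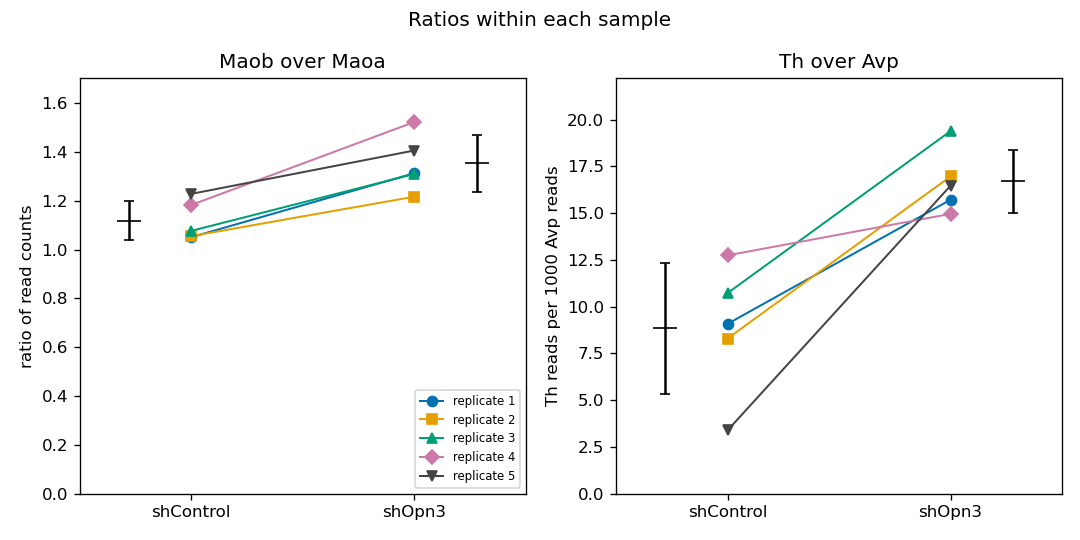
Ratio of Maob to Maoa normalized counts and Th normalized counts per 1000 of Avp (vertical axes) in shControl and shOpn3 samples, with a line for each replicate number and the group mean ± SD (n = 5) beside them. Both ratios are higher in shOpn3 in 5 of 5 pairs, and the groups do not overlap for Th per Avp (highest control 12.7, lowest shOpn3 sample 15.0).

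Markers of magnocellular neurons were lower along with these genes: 7 of 8 fell and 0 rose, Scg2 being the exception, and their summed level was 92862 to 214462 normalized counts in shControl and 45611 to 83333 in shOpn3, with no overlap. As in the other lists, the sum weighs abundant genes most, with shControl means of 56039 for Avp and 123 for Otp. Of 7 markers of neurons in general, 1 rose (Rbfox3) and 2 fell (Elavl4 and Uchl1), and their sums overlapped (117965 to 169165 and 116417 to 198776). Of 3 markers of inhibitory neurons, limma called 0, edgeR 0 and DESeq2 0, with 1 at an unadjusted limma p under 0.05. The part of any of these cells in the differences of Th, Ddc and Slc18a2 was not tested.

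The genes most like Ddc and Maob across the 10 samples were found by the smallest root mean square difference of log2 values, each centred on its own mean. The difference between the groups is part of this measure. A log2 difference in the direction of Ddc or Maob thus follows from the selection and is not a separate result. Nearest to Ddc, whose own root mean square deviation was 0.508, were Agtr1a (0.144), Isl1 (0.156) and Crb1 (0.176). Agtr1a encodes an angiotensin II receptor and had a log2 difference of -0.73 (SE 0.189, limma adjusted p = 0.0185). Isl1, a LIM homeodomain transcription factor, fell further, at -1.01 (SE 0.166, limma adjusted p = 0.00152), and Crb1 was at -0.52 (SE 0.220), with a limma adjusted p of 0.123 with the group alone and 0.0399 with the block. Nearest to Maob (own deviation 0.172) were Cep192 (0.0422), Ccny (0.0439) and Slk (0.0484), each with a log2 difference of 0.26 or 0.27.

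The rest of the pathway was followed through 22 further genes, of which 21 were tested, 2 rose and 2 fell with the group alone, and 2 rose and 4 fell with the block. Their median log2 difference was -0.11, against -0.40 for the 6 tested genes above and -0.02 for all genes tested. The 6 ran from -1.31 (Th) to 0.27 (Maob), with none between Ddc (-0.81) and Maoa (-0.002). The median of -0.40 falls in that gap and says nothing of the chain as a whole.

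In the cofactor group Qdpr and Pcbd1, which recycle tetrahydrobiopterin, fell, while Pts and Spr, which make it, were not called. Qdpr, which regenerates the cofactor after each hydroxylation, stood at 10425, 8836, 8579, 9135 and 12084 normalized counts in shControl replicates 1 to 5 and at 4936, 4544, 4811, 5770 and 5944 in shOpn3 replicates 1 to 5. The groups lay far apart, and each shOpn3 sample was at 47.3% to 63.2% of its control. Qdpr fell, with a log2 difference of -0.91 (SE 0.110, limma adjusted p = 0.000367).

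Pcbd1, which acts just before Qdpr in the same recycling, fell from 857 ± 125 to 578 ± 71.0 normalized counts (n = 5 each, SD; log2 difference -0.56, SE 0.121, limma adjusted p = 0.00697). Its relative Pcbd2 was at -0.38 (SE 0.143), with a limma adjusted p of 0.0872 with the group alone and 0.0212 with the block. Pts (-0.18), Spr (-0.05) and Gchfr (-0.08) were not called by the group fit. The 8 oligodendrocyte markers all fell beside Qdpr, with sums of 718515 to 1219551 in shControl and 244005 to 461422 in shOpn3. Their part in the difference of Qdpr was not tested.

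Among 6 further transporters, 2 rose and 0 fell. Slc22a3 was lower in all 5 pairs with no overlap between groups but was not called (log2 difference -0.38, SE 0.151). Its limma adjusted p was 0.104 with the group alone and 0.0903 with the block. Sv2c, a synaptic vesicle glycoprotein, rose from 870 ± 93.0 to 1569 ± 223 normalized counts (n = 5 each, SD; log2 difference 0.84, SE 0.114, limma adjusted p = 0.000568), with no overlap between groups. Slc18a1, the second vesicular monoamine transporter, rose from 58.6 ± 11.6 to 86.2 ± 9.29 (n = 5 each, SD; log2 difference 0.56, SE 0.166, limma adjusted p = 0.0323), while Slc18a2 was lower in all 5 pairs. The groups overlapped for Slc18a1, the lowest shOpn3 sample (72.2) lying below the highest control (74.9).

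Among 8 further breakdown genes limma called 0 with the group alone, 2 had an unadjusted limma p under 0.05 (Aldh3a2 and Akr1a1), edgeR called 0 and DESeq2 called 1. Aldh3a2, an aldehyde dehydrogenase, was at -0.18, with a limma adjusted p of 0.118 with the group alone and 0.0230 with the block.

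**Figure D4:**
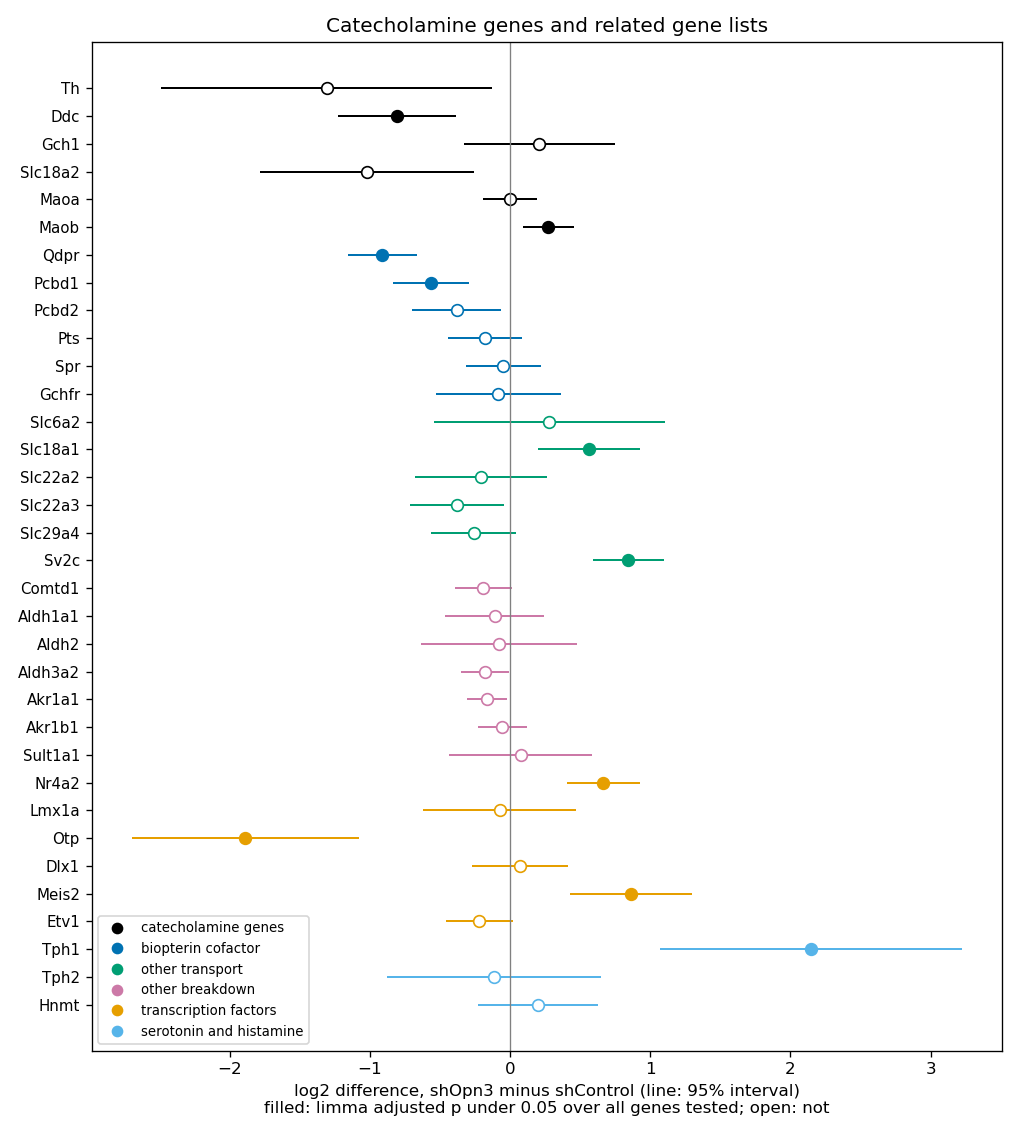
Log2 difference (shOpn3 minus shControl, horizontal axis) with its 95% interval from limma with the group alone for the catecholamine genes and for genes of related lists (rows), with filled points for an adjusted p under 0.05. Qdpr (-0.91) and Ddc (-0.81) lie to the left with short intervals, Sv2c (0.84) to the right, and Th (-1.31) to the left with a wide interval that is not filled.

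Transcription factors known from catecholamine neurons did not move one way. Of 14, 6 were tested, 2 rose and 1 fell, while Foxa2 and Hand2 were listed at 0 in all samples. Nr4a2 (Nurr1), needed by midbrain dopamine neurons, rose from 188 ± 25.6 to 297 ± 18.5 normalized counts (n = 5 each, SD; log2 difference 0.67, SE 0.116, limma adjusted p = 0.00216), with no overlap between the groups. Meis2 rose as well (0.86, SE 0.198, limma adjusted p = 0.00951). Otp, needed by hypothalamic neuroendocrine neurons including magnocellular ones, fell (log2 difference -1.89, SE 0.369, limma adjusted p = 0.00414). Etv1 was at -0.22, with a limma adjusted p of 0.177 with the group alone and 0.0266 with the block.

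Ddc, Slc18a2 and the oxidases also serve serotonin and histamine cells, so 6 genes of those were counted, of which 3 were tested, 1 rose and 0 fell. Tph1, a tryptophan hydroxylase that starts serotonin synthesis, stood at 2.04, 15.3, 11.2, 8.43 and 2.11 normalized counts in shControl replicates 1 to 5 and at 15.4, 38.2, 34.6, 40.6 and 30.8 in shOpn3 replicates 1 to 5. It was low throughout, and 2 of the controls held 2 reads each, under the floor of 3. Its log2 difference was 2.15 (SE 0.491, limma adjusted p = 0.00956), a value that depends on the pseudocount at such counts. The shControl mean of Tph1 (7.81) lay under the filter of 10. It was tested only through its shOpn3 samples (mean 31.9), so its rise is in part a matter of that selection. Tph2 (-0.11, limma adjusted p = 0.858) and Hnmt (0.20) were not called, and Hdc, Slc6a4 and Fev did not pass the filter. Mast cells can hold Tph1 and Hdc, and none of 6 mast cell markers passed the filter, their sum being 1.02 to 7.14 normalized counts in shControl and 0 to 10.6 in shOpn3.

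Other cell markers moved in these punches too. Of 9 microglia and macrophage markers 8 rose, with sums of 9884 to 13987 in shControl and 18624 to 38673 in shOpn3, and of 5 T cell markers 4 rose, namely Cd4, Cd3e, Cd3g and Cd8a. Cd4, which rat macrophages and microglia also make, stood at 584 to 737 normalized counts in shControl and 1427 to 4058 in shOpn3, while Cd3e, Cd3d, Cd3g and Cd8a were each under 100 in every sample. With the group alone, limma called 0 of 6 endothelial markers tested and 0 of 5 of pericytes and smooth muscle, with 0 at an unadjusted p under 0.05 and 0 called by edgeR or DESeq2. With the block, limma called 1 of the 6 endothelial markers higher, Slco1a4 (log2 difference 0.17, adjusted p = 0.0442), and 0 of the 5. Of the ependymal markers 1 was tested, and it was called by none of these tests. The part of these cells in the differences above was not tested.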

How the data were processed

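The deposited table gives a signal per gene and sample, read counts that the authors divided by 1 size factor per sample, from which whole reads were recovered for 100% of values. Per the file headers, it also holds the authors' comparison as a log2 fold change with its standard error, a Wald score, a p-value and an adjusted p-value. The submitters' processing notes name FastQC, STAR, featureCounts and DESeq2. Versions, genome build and strand setting are not given in the sources used here.

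Normalized counts were put on a log2(value + 1) scale. Genes averaging at least 10 were kept (15597), and limma 3.58.1 (R 4.3.3, eBayes with a trend) was fitted with the group alone, two-sided, with Benjamini-Hochberg adjustment. A fold change on this scale understates the change of low genes. Alternatives were edgeR 4.0.16 and DESeq2 1.42.0 on the recovered reads, limma-voom with sample weights, other scalings, pseudocounts of 0.5 and 5, no filter, each sample left out, and the replicate block. DESeq2 with the group alone gave the authors' deposited values for the 8 genes and is not a test separate from theirs. Self-tests ran on simulated data.

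The labels say that each rat gave a nucleus to each group, but not that equal numbers mark the same rat. Deviations from the group means correlated across genes in all 5 same-numbered pairs (r from 0.12 to 0.44, median 0.40), against -0.45 to 0.36 (median -0.21, 20 combinations) for different numbers. Deviations within a group cancel out, so positive values for same numbers draw those for different numbers toward negative ones. The medians are therefore not independent of each other. Pair 4 had the lowest r, below that of 6 combinations of different numbers. Equal numbers were treated as pairs on that ground. With no further detail on the rats, p-values measure the spread between these samples.

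The members and lists were chosen with earlier results of these data known. All 8 genes are named, as are Opn3, Avp, Oxt, genes of the lists past the threshold and, for each gene of the 8 called with the group alone, the 3 most alike. Others from the lists are given by value, and some genes counted in the lists are not reported here by name. Of the 8 genes, 8 matched the RefSeq promoter table of GRCr8, whose build may differ from that of the reads. Counting error is covered only by the floor of 3 reads.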

Additional observations from a re-analysis of the deposited data

Results flagged for a closer look

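Of 22 group values examined for a sample far from the others of its group, 2 stood out, where chance gives about 1 in 20 (1.1 of 22). Dbh in shControl replicate 1 was at 5.10 normalized counts, from 5 reads, with the next control at 1.05. Oxt in shControl replicate 1 was at 56716 normalized counts, with the next control at 21354.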

How the results depend on the processing

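Ddc kept its direction and its call in 27 of 27 alternatives, and Gch1 was called in 0 of 27. Th was called in 10 of 27 and Slc18a2 in 13 of 27, both lower in all 27. With the replicate number as a block, which pairs the samples, limma called 4726 genes in place of 2940 and 4 of the 8 genes in place of 2, Th and Slc18a2 being added, and 8 of 8 fits with a block called both. The block fits of edgeR and DESeq2, chosen after seeing the data, called 4777 and 4555 genes, and 4 of the 8 in each. Limma-voom with sample weights called 5085 genes and 4 of the 8. Block fits without both samples of 1 number, also chosen after seeing the data, called 2930 to 4567 genes and 4 of the 8 each. Leaving out 1 sample at a time with the group alone, limma called 1973 (without shOpn3 replicate 3) to 3057 genes and 1 to 3 of the 8. The count was 1 without shControl replicate 1 or 2 or shOpn3 replicate 2, 3 or 5, since Maob lost its call. The cause was not tested.

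The log2 difference of Maoa, near 0 throughout, turned positive under quantile normalization (0.053), under total-count scaling (0.068), in block fits without replicate 3 (0.0083) or 4 (0.012), and without shControl replicate 2 (0.028), 3 (0.034) or 4 (0.0055) or shOpn3 replicate 1 (0.022), 4 (0.0045) or 5 (0.029). Without shControl replicate 5 it was -0.048. Scalings moved the median log2 difference of all genes from -0.02 to between -0.03 and 0.05. Depth limits Dbh, Slc6a3 and Pnmt, whose reads were at or near the floor of 3.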
